A study of Mus musculus with 2 samples.

Results

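Microglia, the resident macrophages of the brain, and the border macrophages of the meninges and perivascular spaces were read here through 37 genes. The genes comprise homeostatic microglial genes, border macrophage genes, activation genes and the ligands that act on their receptors. They were found by matching gene symbols to the Ensembl identifiers of the deposited gene tables without their version. All 37 of 37 symbols matched a row, among 43346 Ensembl genes and 21474 protein-coding genes. The tissue was midbrain of newborn mice of strain B6NCrl at age 0 days, with no allele, treatment or second condition named in the labels. Pup 1 and pup 3 each gave 1 midbrain and 1 library of total RNA, so the series has 1 group of 2 animals. Both carry the same donor identifier in the labels, and sex was not collected. Whole tissue was sequenced, so a lower level of a macrophage gene could mean fewer macrophages or less RNA per cell, and these cannot be told apart.

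Microglia derive from yolk sac progenitors and enter the brain before birth. The transcription factor PU.1 and the receptor CSF1R, activated by CSF1 or IL-34, are needed for their formation and survival. In the developing brain microglia clear dying cells and prune synapses, and C1q, which they secrete, starts the classical complement pathway. Neurons signal to microglia through CX3CL1, whose receptor CX3CR1 is a classical microglial marker. Border macrophages share much of this programme and add scavenger receptors such as MRC1, CD163 and LYVE1.

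The libraries held 36934868 expected counts in pup 1 and 40769103 in pup 3. The 37 genes took 0.0936% of these counts in pup 1 and 0.0877% in pup 3. Most of that share fell on Ctsd (13429 counts in pup 1 and 13560 in pup 3) and Cx3cl1 (6825 and 6846). Nearly all cells express Ctsd and neurons express Cx3cl1, so the share is not that of macrophages. Levels are in TPM, a length-adjusted share of the library's transcripts, which allows genes to be compared. The worth of 1 count, as the median over these genes, was 0.0213 TPM in pup 1 and 0.0195 TPM in pup 3. Counting error is therefore small for most of them and larger for Itgax, Gpnmb, Ptprc, Itgam and P2ry13, which had fewer than 100 counts in each pup. Genes of neurons, astrocytes, oligodendrocytes, endothelium and meningeal fibroblasts were also present, with 26 of 26 genes on those lists reaching 1 TPM in both pups. Their list medians lay between 10.1 TPM (endothelium) and 250 TPM (neurons) in pup 1 and between 9.93 and 287 TPM in pup 3.

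Most of these macrophage genes were read on the day of birth. A level of 1 TPM or more in both pups was reached by 33 of the 37 genes, where 62.1% of all protein-coding genes reached it. That share is also the background for the counts of the other gene lists. The exceptions were the integrins Itgam and Itgax, the leukocyte phosphatase gene Ptprc and the activation gene Gpnmb. The median over the 37 genes was 6.98 TPM in pup 1 and 7.18 TPM in pup 3, and that over all protein-coding genes was 4.52 TPM in pup 1 and 4.70 TPM in pup 3. The 3 C1q genes had the highest class median, at 35.5 ± 3.32 TPM (SD, n = 2), and the activation class the lowest, at 2.86 ± 0.686 TPM (SD, n = 2). Posterior mean TPM, an alternative estimate in the same tables, put 35 of the 37 genes at 1 TPM or more.

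**Figure D1:**
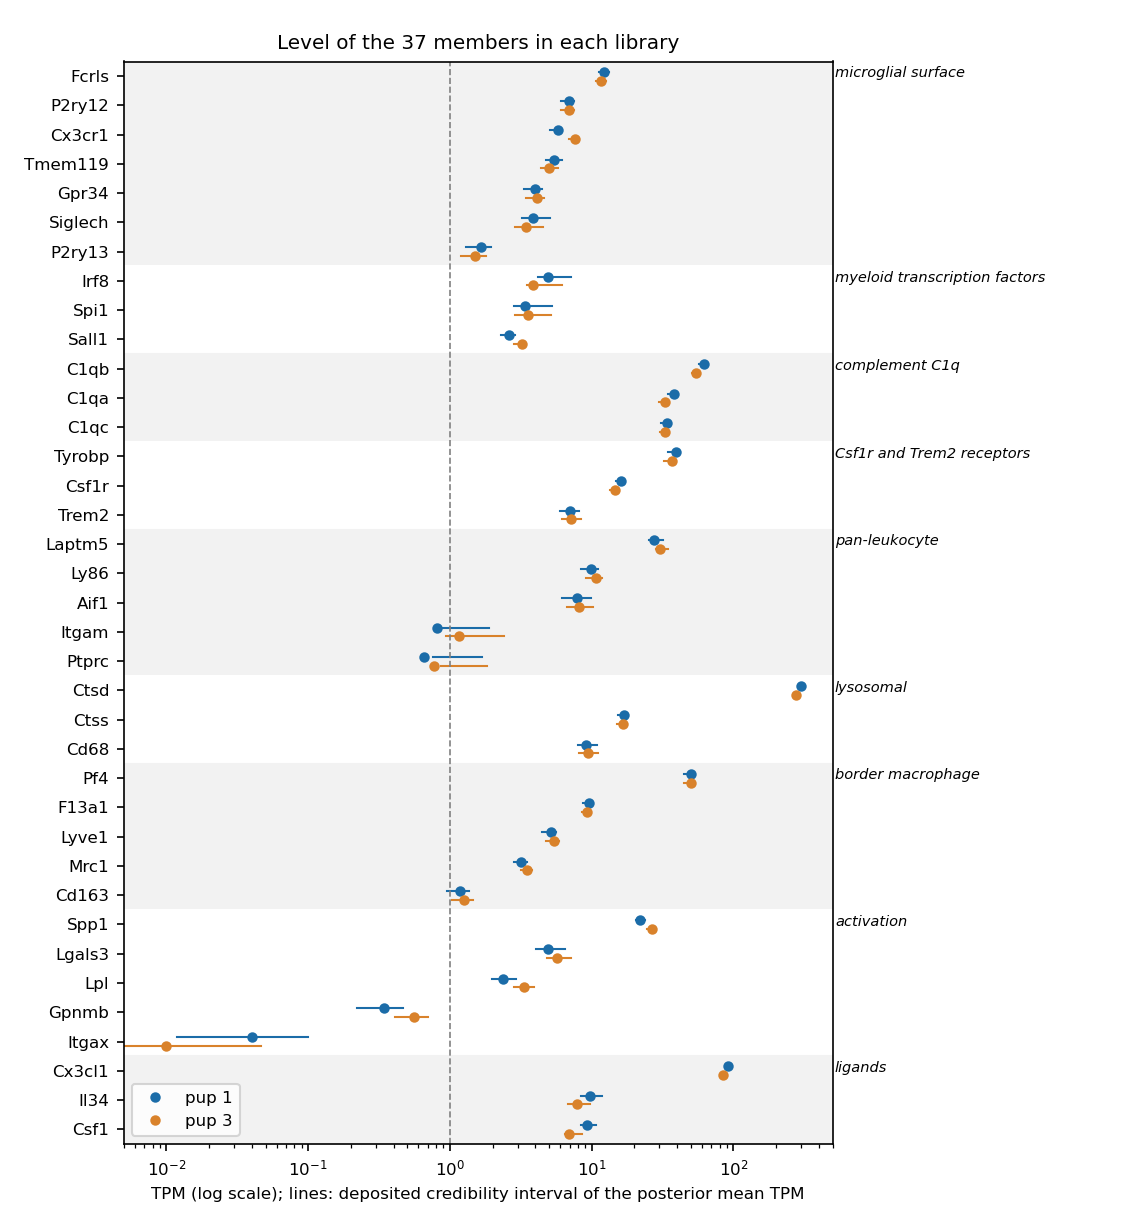
Level of each of the 37 genes in pup 1 (blue) and pup 3 (orange), grouped by class, on a log axis of TPM. Lines are the deposited credibility intervals of the posterior mean TPM, the dashed line marks 1 TPM, and the lower bound for Itgax in pup 3 lies off the axis. Ctsd and Cx3cl1 lie highest, and Itgax, with 4 counts in pup 1 and 1 in pup 3, lies lowest.

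Promoter sequence is shown for 3 genes of different classes, because PU.1 is known to act at purine-rich GGAA sites of myeloid promoters. C1qb is a C1q chain gene, Trem2 a lipid-sensing receptor gene and Pf4 a chemokine gene of the border macrophage class. Each line gives the 250 bases before the RefSeq gene start in build GRCm38.p6, read 5′ to 3′ on the gene's strand. The windows are chr4:136886201-136886450 on the minus strand for C1qb, chr17:48346151-48346400 on the plus strand for Trem2 and chr5:90772185-90772434 on the plus strand for Pf4. Capitals mark matches on either strand to GAGGAAG or GGAAGT, motifs that can overlap.
C1qb: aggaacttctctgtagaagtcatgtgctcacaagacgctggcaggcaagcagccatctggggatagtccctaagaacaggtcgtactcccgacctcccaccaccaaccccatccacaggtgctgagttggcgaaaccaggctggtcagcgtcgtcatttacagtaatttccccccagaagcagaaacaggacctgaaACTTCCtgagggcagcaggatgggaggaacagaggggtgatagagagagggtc
Trem2: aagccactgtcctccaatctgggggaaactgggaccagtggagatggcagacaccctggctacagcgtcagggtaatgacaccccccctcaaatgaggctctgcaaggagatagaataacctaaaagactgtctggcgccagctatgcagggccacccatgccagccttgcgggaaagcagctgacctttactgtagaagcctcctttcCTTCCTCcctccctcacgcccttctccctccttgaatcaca
Pf4: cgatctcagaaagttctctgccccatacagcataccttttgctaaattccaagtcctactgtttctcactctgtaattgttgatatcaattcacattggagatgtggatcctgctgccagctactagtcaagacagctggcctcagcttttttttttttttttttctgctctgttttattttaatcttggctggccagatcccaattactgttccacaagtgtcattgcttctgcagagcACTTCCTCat
In C1qb the match began 53 bases before the start and was to GGAAGT on the other strand. The Trem2 match, to GAGGAAG on the other strand, began 41 bases before the start. The Pf4 matches to both motifs, also on the other strand, overlapped and began 10 and 9 bases before the start. Promoters of 28 of the 37 genes were in the RefSeq table, 34 in number, and 11 of those 34 (32.4%) held GAGGAAG, against 10.6% of the 32851 promoters in the table. For GGAAGT the share was 41.2% of the 34, against 19.7% of all. The ETS-IRF composite motif was in 0 of 34 and in 2.30% of all, TGANTCA, an AP-1 type, in 3 of 34 and in 6.75% of all, and TATAAA in 7 of 34 and in 12.4% of all. These motifs were chosen after the levels were known, both strands were searched, and a match is not a measured binding site. Each of the 3 genes shown held a match, so they do not stand for all 28. Promoters with GAGGAAG also included that of Cx3cl1, a ligand gene that neurons express.

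The 3 chains of C1q were among the highest macrophage genes, and they neighbour each other. C1qb (ENSMUSG00000036905.8, chromosome 4, 136880129 to 136886187, mm10, minus strand) stood at 61.65 TPM in pup 1 and 54.7 TPM in pup 3, on 1410 and 1367 counts. C1qa had 37.9 TPM in pup 1 and 33.0 TPM in pup 3, and C1qc had 33.8 TPM in pup 1 and 33.2 TPM in pup 3. C1qb thus exceeded the other chains in both pups, and C1qa and C1qc had overlapping credibility intervals in both. With 86.4% of protein-coding genes below it, C1qb led the class. C1qb lies 3.6 kb from C1qc, which lies 2.9 kb from C1qa, with 0 protein-coding genes between them. The log2 ratio of C1qb over C1qa was 0.71 ± 0.018 and that of C1qb over C1qc 0.79 ± 0.10 (SD, n = 2), neither past the value of 1 set for a pair to be called apart.

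Of the rest of the complement pathway, 8 of 14 genes on the list reached 1 TPM in both pups, near the 62.1% of all protein-coding genes. The list's median was 1.2 TPM in pup 1 and 1.13 TPM in pup 3. Among the highest were the C1 inhibitor gene Serping1 (26.0 TPM in pup 1 and 27.1 in pup 3) and the regulator gene Cd55 (10.9 and 10.5). Lowest by the mean of the pups was Hc, which encodes C5, at 0.56 TPM in pup 1 and 0.27 TPM in pup 3. The summed TPM of the 14 genes was 79.9 in pup 1 and 77.1 in pup 3, against 133 and 121 for the 3 C1q genes.

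Surface genes of homeostatic microglia were all present, with 7 of 7 reaching 1 TPM in both pups. Fcrls, an Fc receptor-like gene of mouse microglia, was highest at 12.25 TPM in pup 1 and 11.6 TPM in pup 3. P2ry12, the ADP receptor that steers microglial processes (ENSMUSG00000036353.9, chromosome 3, 59216272 to 59262871), had 6.96 TPM in pup 1 and 6.95 TPM in pup 3. Cx3cr1, the fractalkine receptor gene, was at 5.79 TPM in pup 1 and 7.67 TPM in pup 3. The pups thus had nearly the same level of P2ry12, and Cx3cr1 was lower in pup 1. Tmem119, a membrane protein gene used to tell microglia from other macrophages, stood at 5.39 TPM in pup 1 and 4.99 TPM in pup 3. The lysophospholipid receptor gene Gpr34 stood at 3.96 TPM in pup 1 and 4.12 TPM in pup 3, and the sialic acid-binding lectin gene Siglech at 3.84 and 3.46. P2ry13, a second ADP receptor gene that lies 5.4 kb from P2ry12, was the lowest of the class at 1.66 TPM in pup 1 and 1.5 TPM in pup 3. The pair of ADP receptor genes was apart, with a log2 ratio of P2ry12 over P2ry13 of 2.07 ± 0.096 (SD, n = 2). P2ry12 shares exonic sequence with Med12l on the opposite strand, where 488 counts fell in pup 1 and 645 in pup 3. Use of strand in counting is not given in the sources used here.

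On a further list of 30 microglial genes, 23 reached 1 TPM in both pups, against 62.1% of all protein-coding genes. The list's median level was 4.88 TPM in pup 1 and 4.27 TPM in pup 3. Its highest genes were the cystatin C gene Cst3 (1003 TPM in pup 1 and 917 in pup 3), the G protein regulator gene Rgs10 (77.5 and 75.9) and the adhesion receptor gene Adgrg1 (79.2 and 73.9). Cst3 and Adgrg1 are also known from astrocytes and neural progenitors, and the cells that these genes and Rgs10 were read from were not measured. Lowest was the adenosine receptor gene Adora3, at 0.17 TPM in pup 1 and 0.21 TPM in pup 3.

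The transcription factors of the lineage were low but present, with a class median of 3.48 ± 0.113 TPM (SD, n = 2). Spi1, which encodes PU.1, was at 3.40 TPM in pup 1 and 3.56 TPM in pup 3. Irf8, a partner of PU.1 needed for microglial development, was at 4.88 TPM in pup 1 and 3.86 TPM in pup 3. Sall1, which holds microglia in their homeostatic state and is also expressed by neural progenitors, was at 2.63 TPM in pup 1 and 3.20 TPM in pup 3. These 3 genes were close to each other: neither Spi1 over Irf8 (log2 ratio -0.31 ± 0.28, SD, n = 2) nor Spi1 over Sall1 (0.25 ± 0.15) was apart. Counts not divided by length turned Spi1 over Sall1 to -1.44.

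Receptors that keep microglia alive and let them sense lipids had a higher class median, 15.4 ± 0.997 TPM (SD, n = 2). Tyrobp, the adaptor gene through which TREM2 signals, was at 39.3 TPM in pup 1 and 36.8 TPM in pup 3. Csf1r (ENSMUSG00000024621.11, chromosome 18, 61100598 to 61132149) had 16.1 TPM in pup 1 and 14.7 TPM in pup 3. Trem2 itself was at 6.98 TPM in pup 1 and 7.18 TPM in pup 3. The adaptor exceeded its receptor, with Tyrobp over Trem2 at 2.41 ± 0.097 on the log2 scale (SD, n = 2). Tyrobp also serves other receptors of myeloid cells. Csf1r shares exonic sequence with Hmgxb3 on the opposite strand (973 counts in pup 1, 999 in pup 3), and the counts of Csf1r were not whole.

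Genes of both CSF1R ligands were present at like levels. Csf1 was at 9.26 TPM in pup 1 and 6.97 TPM in pup 3, and Il34, a ligand made mainly by neurons in the brain, at 9.74 TPM in pup 1 and 7.85 TPM in pup 3. Their credibility intervals overlapped in both pups, and Csf1 over Il34 was at -0.12 ± 0.069 on the log2 scale (SD, n = 2), or 1.11 with counts not divided by length. Csf1r lay above both ligand genes, by 0.93 ± 0.19 over Csf1 and by 0.81 ± 0.12 over Il34, short of the value called apart, although pup 3 alone gave 1.06 over Csf1, and counts not divided by length gave 1.36 over Csf1 and 2.47 over Il34, both apart. The third ligand gene, Cx3cl1 (ENSMUSG00000031778.8, chromosome 8, 94772009 to 94782427), which neurons express, was far higher at 91.9 TPM in pup 1 and 85.1 TPM in pup 3. Cx3cl1 over its receptor gene Cx3cr1 was at 15.9 on the TPM scale in pup 1 and 11.1 in pup 3 (log2 ratio 3.71 ± 0.36, SD, n = 2). The list of signalling partners of CSF1R, TREM2 and TGF-beta also held the GM-CSF receptor genes Csf2ra and Csf2rb. On that list 8 of 12 genes reached 1 TPM in both pups, near the 62.1% of all protein-coding genes. The highest were the signal transducer gene Smad2 (26.7 TPM in pup 1 and 27.9 in pup 3), the GM-CSF receptor gene Csf2ra (21.3 and 23.4) and the ligand gene Tgfb2 (17.1 and 19.5). The 4 below 1 TPM in both pups were Syk, Tgfb1, Csf2rb and Hcst, the last on 3 counts in each pup.

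Genes shared by many leukocytes spread widely. Laptm5, a lysosomal membrane protein gene of blood lineage cells, was highest at 27.5 TPM in pup 1 and 30.3 TPM in pup 3. Ly86, a partner of a Toll-like receptor homologue, followed at 9.87 TPM in pup 1 and 10.7 TPM in pup 3. Aif1, which encodes the IBA1 protein used to stain microglia, was at 7.87 TPM in pup 1 and 8.18 TPM in pup 3. The CD11b gene Itgam was at 0.81 TPM in pup 1 and 1.16 TPM in pup 3, on 83 and 86 counts. The CD45 gene Ptprc was at 0.66 TPM in pup 1 and 0.77 TPM in pup 3, on 69 and 83 counts. For both of these genes the deposited TPM lay below its own credibility interval in a pup or more, and posterior mean TPM gave 1.32 in pup 1 and 1.61 in pup 3 for Itgam and 1.18 and 1.30 for Ptprc. Whether they lie under or over 1 TPM thus depends on the estimate.

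Lysosomal genes included the highest of the 37. Ctsd, the cathepsin D gene (chromosome 7, 142375911 to 142388038), stood at 298 TPM in pup 1 and 277 TPM in pup 3, above 97.6% of protein-coding genes. Ctss, the cathepsin S gene of antigen-presenting cells, was at 17.0 TPM in pup 1 and 16.7 TPM in pup 3, and Cd68, a lysosomal glycoprotein gene of macrophages, at 9.17 TPM in pup 1 and 9.49 TPM in pup 3. Ctsd is expressed by nearly all cells, including neurons, and stood apart from Ctss by 4.08 ± 0.050 on the log2 scale (SD, n = 2). Ctss and Cd68 were closer, at 0.85 ± 0.057, which was not called apart, although counts not divided by length put the pair at 1.08 and apart.

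Of the border macrophage genes, 5 of 5 reached 1 TPM in both pups. Pf4, a chemokine gene of border macrophages and platelets (ENSMUSG00000029373.6, chromosome 5, 90772435 to 90773383), led at 49.8 TPM in pup 1 and 49.99 TPM in pup 3. F13a1, a transglutaminase gene also known from platelets, was at 9.59 TPM in pup 1 and 9.33 TPM in pup 3. The hyaluronan receptor gene Lyve1, also a lymphatic endothelial marker, was at 5.14 TPM in pup 1 and 5.45 TPM in pup 3. All 3 were nearly equal in the pups. Mrc1, the mannose receptor gene, was at 3.16 TPM in pup 1 and 3.5 TPM in pup 3, and Cd163, the haemoglobin scavenger receptor gene, was lowest at 1.17 TPM in pup 1 and 1.26 TPM in pup 3. The class median was 5.14 TPM in pup 1 and 5.45 TPM in pup 3, close to the 5.39 and 4.99 TPM of the microglial surface class.

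On a further list of 18 border macrophage genes, 12 reached 1 TPM in both pups, near the 62.1% of all protein-coding genes. It was led by the scavenger receptor gene Colec12 (17.5 TPM in pup 1 and 16.1 in pup 3), the endocytic adaptor gene Dab2 (13.2 and 14.3) and the scavenger receptor gene Stab1 (8.63 and 9.93). Siglec1, the sialoadhesin gene, was lowest at 0.19 TPM in pup 1 and 0.23 TPM in pup 3. Stab1 and Colec12 are also expressed by endothelial or stromal cells.

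Genes of circulating and other blood cells were read beside these classes. Of 7 monocyte genes 2 reached 1 TPM in both pups, Vcan, a matrix proteoglycan gene also made by brain and meningeal cells (9.26 TPM in pup 1 and 11.3 in pup 3), and Plac8 (1.15 and 1.46). The lipopolysaccharide co-receptor gene Cd14 was next at 1.09 TPM in pup 1 and 0.86 TPM in pup 3. Ccr2, the receptor gene that defines inflammatory monocytes, had 5.26 counts in pup 1 and 3 in pup 3, against 425 and 604 for Cx3cr1. The TPM ratio of Cx3cr1 over Ccr2 was 82.7 in pup 1 (exact 95% counting interval 38.9 to 283) and 256 in pup 3 (75.1 to 1073). The list median of monocytes was 0.48 TPM in pup 1 and 0.33 TPM in pup 3, and their summed TPM was 12.5 and 14.0. The part of blood cells in the levels of the pan-leukocyte genes was not tested.

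Granulocyte and lymphocyte genes had lower list medians than monocyte genes in both pups, at 0.26 TPM in pup 1 and 0.175 TPM in pup 3 for neutrophils and 0.06 and 0.10 TPM for lymphocytes. Of 8 neutrophil genes 2 reached 1 TPM in both pups, the alarmin genes S100a8 (4.72 TPM in pup 1 and 2.43 in pup 3) and S100a9 (1.78 and 1.92). Ly6g, the marker that defines mouse neutrophils, had 0 counts in both, which allows up to 3. Ngp, a granule protein gene of their precursors, was at 0.45 TPM in pup 1 and 0.52 TPM in pup 3. Of 9 lymphocyte genes only Trbc2, a T cell receptor constant segment, reached 1 TPM in both pups (11.8 in pup 1 and 11.4 in pup 3), while the T cell gene Cd3d and the NK cell gene Ncr1 had 0 counts in both. The B cell receptor genes Cd79b (0.99 TPM in pup 1 and 0.94 in pup 3) and Cd79a (0.70 and 0.73) followed. Summed TPM was 7.68 in pup 1 and 5.22 in pup 3 for neutrophils and 13.6 and 13.5 for lymphocytes. Trbc2 alone made up most of the lymphocyte sum, and the cells it was read from were not measured. Dendritic cell genes reached 1 TPM for 2 of 5, the transcription factor gene Zbtb46 (14.25 TPM in pup 1 and 15.6 in pup 3) and the cytokine receptor gene Flt3 (1.67 and 1.69), while Clec9a was at 0.25 and 0.06 TPM and Cd209a had 0 counts in both. The cells Zbtb46 was read from were not measured. Erythroid genes reached 1 TPM for 2 of 5, the haem synthesis gene Alas2 (6.25 and 6.65) and the erythropoietin receptor gene Epor (1.12 and 1.28). The band 3 gene Slc4a1 was at 0.36 and 0.23 TPM, and Hemgn had 0 counts in pup 1 and 1 in pup 3.

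Pf4 and F13a1 are also genes of platelets. In the list of 5 megakaryocyte and platelet genes 2 reached 1 TPM in both pups, Itga2b (13.2 TPM in pup 1 and 13.2 in pup 3) and Gp1bb (12.75 and 13.2). The platelet chemokine gene Ppbp had 12 (pup 1) and 4 (pup 3) counts, and Gp9, a subunit gene of the platelet von Willebrand receptor, had 1 in each. Pf4 over Ppbp was at 94.0 on the TPM scale in pup 1 (exact 95% counting interval 53.5 to 183) and 312 in pup 3 (120 to 1140). The summed TPM of the list was 26.8 in pup 1 and 26.7 in pup 3, against 68.9 and 69.5 for the 5 border macrophage genes. Itga2b and Gp1bb made up most of the first sum, and Pf4, itself a platelet gene, most of the second. The part of platelets in the Pf4 and F13a1 levels was not tested.

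**Figure D2:**
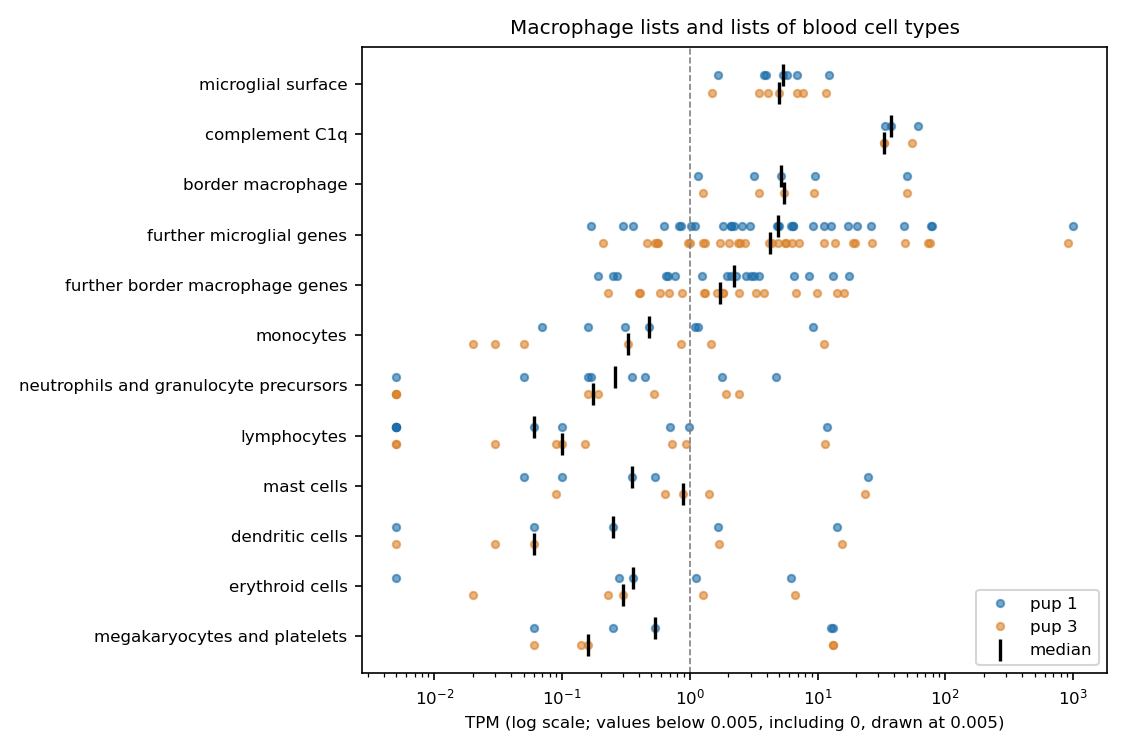
TPM of each gene, on a log axis, for 3 macrophage classes, 2 further macrophage lists and 7 lists of blood cell types, with pup 1 (blue) above pup 3 (orange). Black bars are list medians, the dashed line marks 1 TPM, and values below 0.005 are drawn at 0.005. Medians of the 5 macrophage lists lie above 1 TPM and those of the 7 blood cell lists below it in both pups.

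Activation genes lay at very different levels. Spp1, the osteopontin gene, was at 22.05 TPM in pup 1 and 26.6 TPM in pup 3. Lgals3, the galectin-3 gene, was at 4.90 TPM in pup 1 and 5.72 TPM in pup 3, and the lipoprotein lipase gene Lpl at 2.37 TPM in pup 1 and 3.34 TPM in pup 3. Gpnmb, a glycoprotein gene of lipid-laden macrophages, was at 0.34 TPM in pup 1 and 0.56 TPM in pup 3. The CD11c gene Itgax was nearly unread, with 4 counts in pup 1 and 1 in pup 3. Spp1 thus lay above all 7 microglial surface genes in both pups, and Gpnmb and Itgax lay below all 7. Spp1 over Gpnmb was at 5.5 ± 0.22 and Lgals3 over Gpnmb at 3.32 ± 0.26 on the log2 scale (SD, n = 2). Spp1, Lpl and Lgals3 are also known from other brain cells, and the cell of origin was not measured.

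Pairs of a homeostatic over an activation gene used only Gpnmb and Itgax, the lowest of the activation class. Their direction was thus fixed by the levels above, and Spp1 lay the other way. P2ry12 exceeded Gpnmb by 3.71 ± 0.42 and Trem2 exceeded Gpnmb by 3.74 ± 0.39 on the log2 scale (SD, n = 2). P2ry12 over Itgax was at 174 on the TPM scale in pup 1 (exact 95% counting interval 61.4 to 586) and 695 in pup 3 (124 to 27449). Itgam over its neighbour Itgax, 11.1 kb away and encoding another integrin alpha chain, was at 20.25 in pup 1 (6.92 to 69.1) and 116 in pup 3 (20.2 to 4610). The wide intervals follow from the 4 and 1 counts of Itgax, and with 1 added to each TPM Itgam over Itgax was at 0.95 on the log2 scale and not apart.

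Axon tract and disease-associated microglia are states known from the postnatal white matter and from disease. Of their genes, 10 of 15 reached 1 TPM in both pups, near the 62.1% of all protein-coding genes. Apoe (2103 TPM in pup 1 and 1806 in pup 3), Fabp5 (921 and 849) and Cd63 (236 and 240) were highest, and Apoe and Fabp5 are also strongly expressed by astrocytes and radial glia. The 4 genes below 1 TPM in both pups were Clec7a (0.74 TPM in pup 1 and 0.45 in pup 3), Cst7 (0.10 and 0.40), Ccl4 (0.15 and 0.07) and Cd5l, which had 4 counts in pup 1 and 0 in pup 3. Clec7a and Cst7 are more restricted to activated myeloid cells than Apoe, Fabp5 or Cd63.

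Across 25 gene pairs compared within each library, 14 were apart. The pairs were chosen with earlier results known and no share over other pairs of genes was computed, so the count describes these pairs alone. A pair was called apart where both pups had the same sign, the mean log2 ratio of TPM after adding 0.1 was over 1 in size and over 3 SD, and the credibility intervals of the genes were separate in each pup. With 2 animals an exact sign-flip test cannot give a p below 0.5, so none is given. Pairs of a microglial over a border macrophage gene used only Mrc1 of the border class, and they do not order the cell types. Of the other border genes, Pf4 and F13a1 lay above P2ry12 and Cx3cr1 in both pups, and Lyve1 and Cd163 lay below them. P2ry12 over Mrc1 was at 1.11 in pup 1 and 0.97 in pup 3, a mean of 1.04 ± 0.10 (SD, n = 2), which was apart but became -0.31 with counts not divided by length and 0.88 with 1 added to each TPM. Cx3cr1 over Mrc1 was at 0.85 in pup 1 and 1.11 in pup 3, a mean of 0.98 ± 0.18, which was not apart. Within the border class Mrc1 over Cd163 was at 1.38 ± 0.031, apart, although with 1 added to each TPM it was at 0.97 and lost the call. Mrc1 over Lyve1 was at -0.65 ± 0.043, not apart, and turned to 0.40 with counts not divided by length. Under that last setting C1qa over C1qc also turned, to -0.15.

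**Figure D3:**
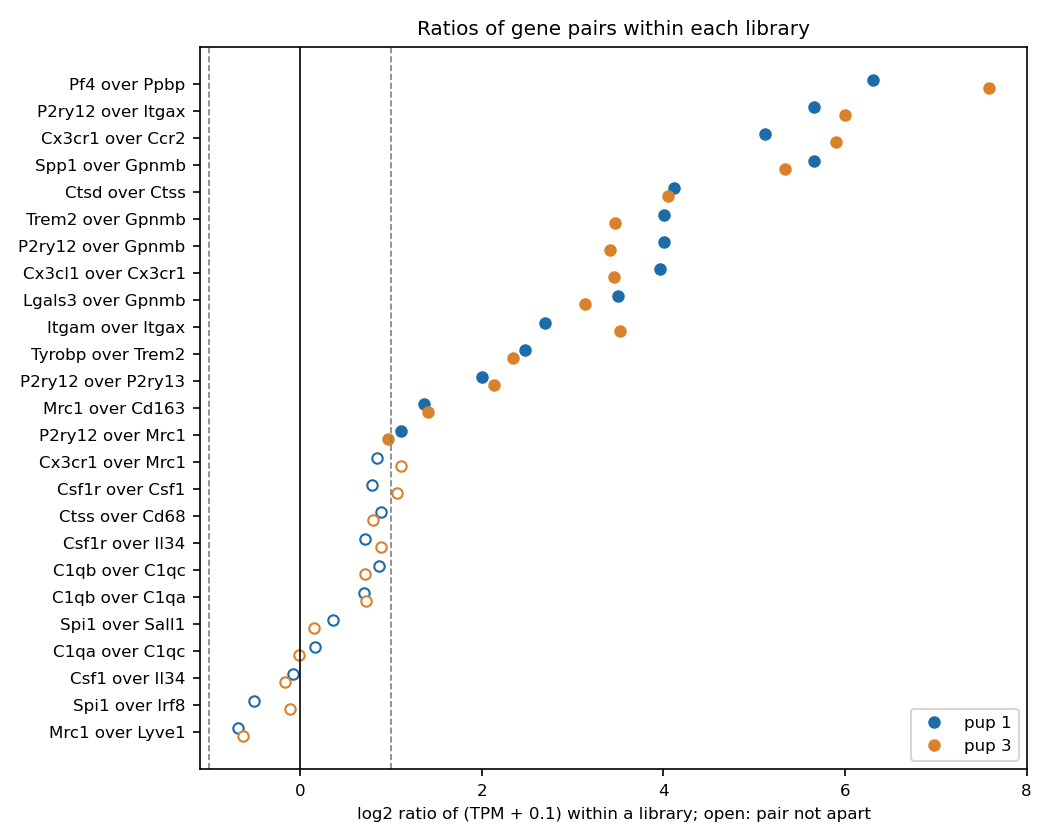
Log2 ratio of TPM after adding 0.1, within pup 1 (blue) and within pup 3 (orange), for 25 gene pairs in order of their mean. Filled points are the 14 pairs called apart, open points the 11 that were not, and dashed lines mark -1 and 1. Pf4 over Ppbp lies highest and Mrc1 over Lyve1 lowest.

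The pups were close in these genes. Among the 32 of 37 with a mean count of at least 100, 0 differed by more than 1 on the log2 scale, where 0.315% of 13318 genes did. Pup 1 was higher for 16 and pup 3 for 16, and the median log2 difference of pup 1 over pup 3 was -0.0016, against -0.018 over all genes tested. Scaling by TMM or DESeq2 size factors gave 19 higher in pup 1 and 13 in pup 3, and moved the median of all genes to 0.01. The median size of the difference was 0.11, the same as over all genes. Its extremes were 0.40 for Csf1 and -0.48 for Lpl.

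Several genes had a counting interval for the ratio of the pups that left out 0. The exact 95% counting interval of the depth-scaled count ratio lay wholly above 0 on the log2 scale for 7 of 32 genes, where 20.8% of all genes tested did so, and wholly below 0 for 4 of 32, where 22.5% did. The 7 higher in pup 1 were C1qa, C1qb, Csf1r, Ctsd, Csf1, Il34 and Cx3cl1. The 4 higher in pup 3 were Cx3cr1, Sall1, Spp1 and Lpl. The first share was near the background and the second was below it, and a counting interval holds no variation between animals. Csf1 was at 654 counts in pup 1 and 553 in pup 3, a log2 ratio of 0.38 (0.22 to 0.55). Cx3cr1 was at 425 counts in pup 1 and 604 in pup 3, a log2 ratio of -0.36 (-0.55 to -0.18). Lpl, at 153 counts in pup 1 and 224 in pup 3, had a log2 ratio of -0.41 (-0.71 to -0.10), and Spp1, at 672 and 884, had -0.25 (-0.40 to -0.11). Under the count minimum, Gpnmb had 29 counts in pup 1 and 52 in pup 3, a log2 ratio of -0.70 (-1.41 to -0.02). For Itgam the TPM ratio was -0.47 and the count ratio 0.09 on the log2 scale, with an effective length of 4453 bases in pup 1 and 2941 bases in pup 3. With 1 library per animal and sex not collected, animal, sex and library preparation cannot be told apart in these differences.

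**Figure D4:**
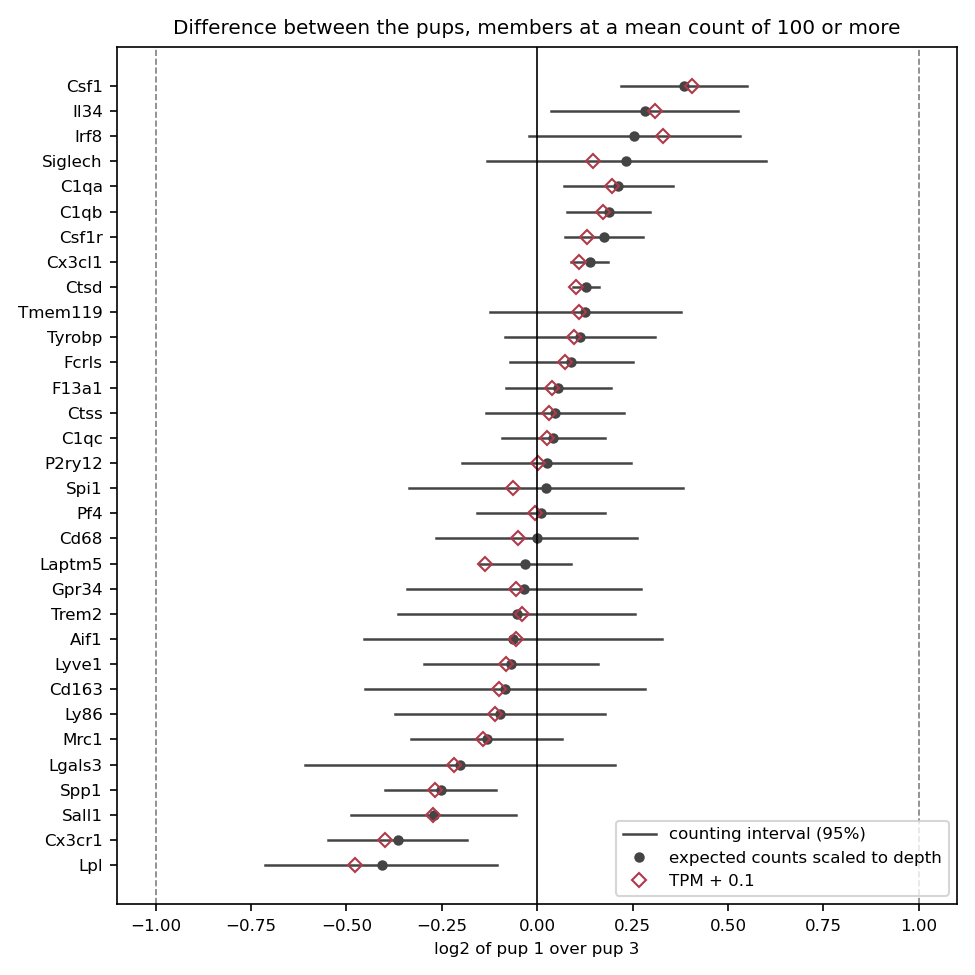
Log2 of pup 1 over pup 3 for the 32 genes with a mean count of at least 100, in order of the count ratio. Filled points are depth-scaled expected counts with exact 95% counting intervals, open diamonds are TPM after adding 0.1, and dashed lines mark -1 and 1. Csf1 lies highest and Lpl lowest, and all points lie between the dashed lines.

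Transcript shares were read for 25 genes with a mean TPM of at least 1 and more than 1 transcript in the files. The leading transcript was the same in both pups for 24 of 25, and it was annotated as protein-coding for 24 of 25. The same shares over all genes were not computed, so these counts say nothing particular to the macrophage genes. Csf1r was the gene whose leader changed: its 4701-base transcript held 52.2% of the gene's TPM in pup 1 and 42.8% in pup 3, and its 3870-base transcript held 47.8% in pup 1 and 57.2% in pup 3. Both are annotated to encode the same 977 amino acids, so the protein read from them does not differ. Lpl was led by a 1900-base transcript with the nonsense-mediated decay biotype, at 55.2% in pup 1 and 61.6% in pup 3. Next was the 4115-base transcript with the protein-coding biotype, at 44.8% in pup 1 and 38.4% in pup 3. Both Lpl transcripts are annotated with a coding sequence for 474 amino acids. For Aif1 the coding transcript held 55.5% in pup 1 and 57.2% in pup 3 and a retained-intron transcript 44.5% in pup 1 and 42.1% in pup 3. With posterior mean shares the retained-intron form of Aif1 led in both pups, at 38.4% in pup 1 and 38.0% in pup 3, while the coding transcripts for 147 amino acids together held 49.8% in pup 1 and 52.8% in pup 3. Cd163 was split nearly evenly between a 4409-base transcript, at 53.0% in pup 1 and 50.8% in pup 3, and a 4492-base transcript, at 47.0% in pup 1 and 49.2% in pup 3. With posterior mean shares the leader of Cd163 also changed between the pups. Under those shares both counts of leading transcripts were 23 of 25.

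The ligand genes were split among transcripts of different annotated protein lengths. Csf1 transcripts annotated to encode 552 amino acids held 58.8% of its TPM in pup 1 and 64.4% in pup 3, and the transcript for 257 amino acids held 31.2% in pup 1 and 30.0% in pup 3. CSF1 is known in a secreted long form and a short membrane-bound form. The Il34 transcript for 235 amino acids held 65.6% in pup 1 and 59.6% in pup 3, that for 219 amino acids 5.78% in pup 1 and 15.3% in pup 3, and transcripts with no coding sequence 28.7% in pup 1 and 25.1% in pup 3. Cx3cl1 was read almost wholly from 1 transcript, at 100% in pup 1 and 99.0% in pup 3. Its receptor gene Cx3cr1 was led by a 3156-base transcript, at 79.6% in pup 1 and 89.3% in pup 3, and P2ry12 by a 2101-base transcript, at 82.1% in pup 1 and 87.1% in pup 3. Such shares are estimates from reads that several transcripts share.

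**Figure D5:**
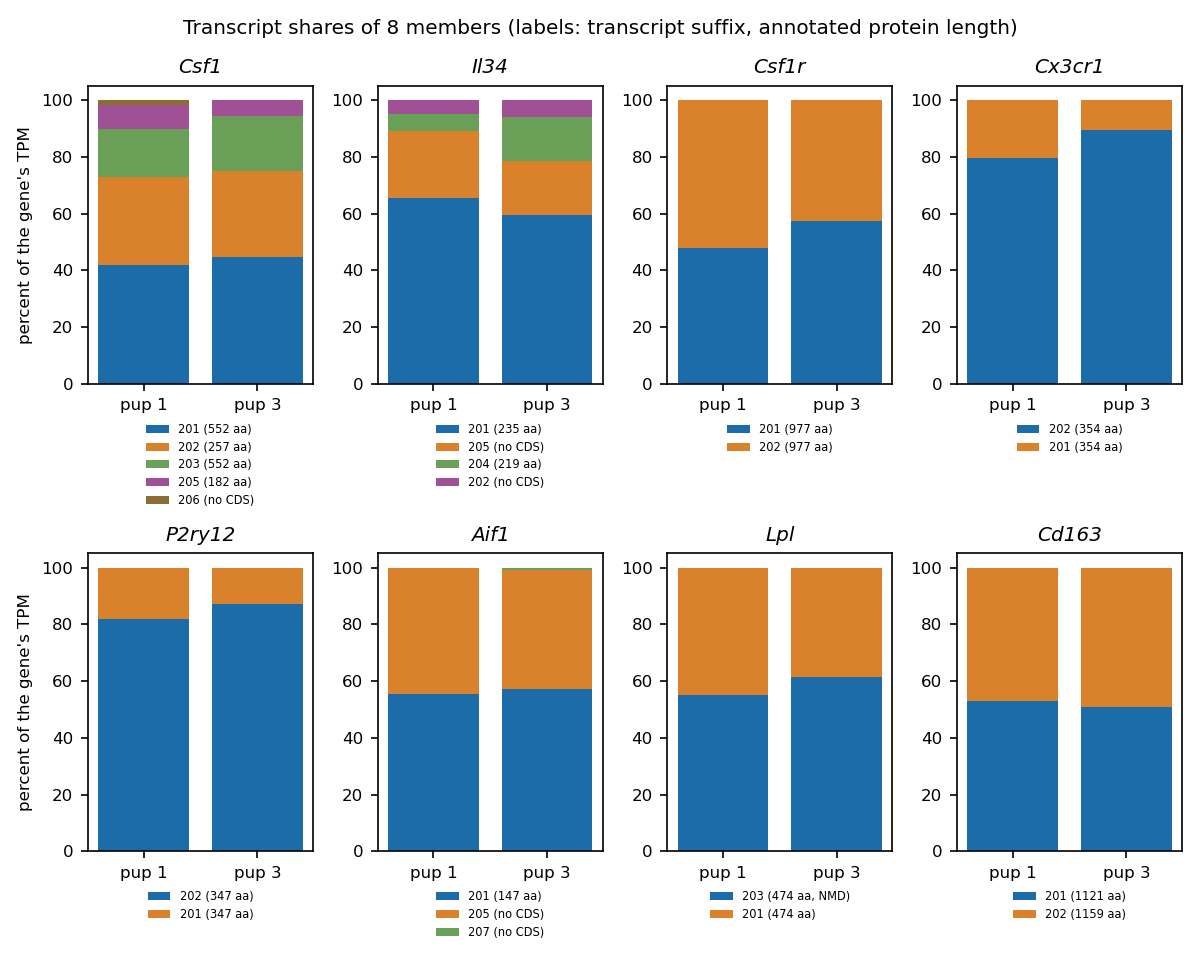
Percent of the gene's TPM assigned to each transcript in pup 1 (left bar) and pup 3 (right bar) for 8 of the 37 genes. Colours are transcripts, labelled by their name's suffix and annotated protein length in amino acids (aa), with NMD for the nonsense-mediated decay biotype and no CDS for transcripts without a coding sequence. The leading transcript differs between the pups for Csf1r and is the same for the other 7 genes.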

How the data were processed

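Total RNA-seq of the midbrain of 2 newborn pups was read. Each library came with a table of genes and another of transcripts, as deposited by the authors. Both derive, per the deposited text record, from alignments to the transcriptome on build mm10 with GENCODE annotation M4. Neither the program and its version nor any use of strand is given in the sources used here. The deposited expected counts are estimated reads per gene. TPM values deposited by the authors add up to the same total in each table, spike-ins included, and are adjusted for effective length. The authors' credibility bounds, a signal on the TPM scale whose level is not given, surround a posterior mean TPM. The percent of a gene's TPM on each transcript is also as deposited. Rows that name no gene held 0.000641% of pup 1's counts and 0.000867% of pup 3's.

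Symbols, biotypes and coordinates came from GENCODE M21, also on mm10, and promoters from RefSeq on GRCm38.p6. Counts were whole within 0.005 in both pups for 35 of the 37 genes. The 37 genes, the other gene lists and the pairs were chosen with earlier results of these data known. All 37 are named, and from each macrophage, pathway and blood cell list (not from lists of brain and meningeal cells) the 3 genes highest by mean TPM, the lowest, and any group of 5 or fewer that passed or missed a threshold. Some genes this rule names are not reported here. The single group allows no contrast of conditions and no p. Levels, class medians, ratios of log2 TPM after adding 0.1 (which understates ratios of low genes), shares of transcripts and differences of pup 1 over pup 3 were computed. Intervals of count ratios are exact binomial intervals at 95%, and 0 counts were read as allowing at most 3. Both cover counting error alone and take reads as independent. Reads lacking molecular identifiers need not be independent molecules, so the intervals can be too narrow. For alternative scalings expected counts were rounded, with edgeR 4.0.16 (TMM) and DESeq2 1.42.0 (size factors). Python 3.11.15 with pandas 2.3.3, numpy 2.4.6 and SciPy 1.17.1 was used elsewhere, beside R 4.3.3.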

Additional observations from a re-analysis of the deposited data

How the results depend on the processing

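No paired analysis was possible because the series has 1 group and no comparison between groups. The count of genes at 1 TPM or more was 33, and it ran from 22 at a threshold of 5 TPM to 35 at 0.5 TPM or with posterior mean TPM. Rescaling TPM over nuclear protein-coding genes multiplied all levels and gave class medians of 6.22 (microglial surface), 4.17 (transcription factors), 42.6 (C1q), 18.4 (receptors), 9.62 (pan-leukocyte), 20.2 (lysosomal), 6.35 (border macrophage) and 10.5 TPM (ligands). Posterior mean TPM moved the medians of the transcription factors to 3.98 and of the lysosomal genes to 16.5. Leaving out genes below a mean of 1 TPM moved the pan-leukocyte median to 10.3 and the activation median to 5.31, by construction. Leaving out either pup gave medians equal to those of the other pup. Of 25 pairs, 14 were apart, and 11 to 16 under the alternatives. Adding 1 in place of 0.1 took the call from P2ry12 over Mrc1 (0.88), Mrc1 over Cd163 (0.97) and Itgam over Itgax (0.95). Counts not divided by length, where transcript length enters the ratio, reversed P2ry12 over Mrc1 to -0.31. They also turned the sign of 4 pairs that were not apart, Spi1 over Sall1 (-1.44), Csf1 over Il34 (1.11), Mrc1 over Lyve1 (0.40) and C1qa over C1qc (-0.15), and gave the call to Ctss over Cd68 (1.08), Csf1r over Csf1 (1.36) and Csf1r over Il34 (2.47). With 0.01 added, Cx3cr1 over Mrc1 (1.00) was apart. In pup 3 alone P2ry12 over Mrc1 was not apart (0.97), and Cx3cr1 over Mrc1 (1.11) and Csf1r over Csf1 (1.06) were. The count of the 37 genes past a difference of 1 between the pups stayed at 0 under each alternative tried, while that of all genes, 42, was 379 at a mean count of 10 or more, 2363 with no minimum and 27 with 1 added. Leaving out a pup gives no difference between pups and no comparison of leading transcripts. Depth limits Itgax, Gpnmb, Ptprc, Itgam and P2ry13, which had fewer than 100 counts in each pup.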

Other observations

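Mast cells, which like border macrophages live in the meninges, were read through 5 genes chosen as markers. Kit, which neurons and precursors also express, was the 1 gene at 1 TPM or more in both pups, at 24.8 TPM in pup 1 and 23.7 TPM in pup 3. The chymase gene Cma1 had 8 counts in pup 1 and 35 in pup 3, a depth-scaled log2 ratio of -1.99 (exact 95% counting interval -3.31 to -0.85). The tryptase gene Tpsb2 had 12 (pup 1) and 22 (pup 3) counts, and the interval of their ratio, -1.88 to 0.35, included 0. Lowest was the protease gene Mcpt4, with 1 count in pup 1 and 2 in pup 3. Cma1 was singled out after its values were seen, among many genes of the lists, and its interval holds no variation between animals.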
